A study of Mus musculus with 30 samples.

Results

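Excitatory synapses of the hippocampus are built on the postsynaptic density, a protein lattice beneath the spine membrane that holds glutamate receptors beside the enzymes that strengthen or weaken them. A set of 47 postsynaptic genes was taken by name from the table of 49315 genes. They encode scaffolds, plasticity kinases and phosphatases, GTPase exchange factors and actin regulators. Gphn among them encodes a scaffold of inhibitory synapses. No measured value enters the rule, although earlier results of these data were known when the set was drawn up. All 47 were matched by symbol and identifier, and all 47 passed the filter on low counts that left 16486 genes to be tested. Hippocampal RNA came from 13 TIMP2 KO mice, of which 6 were male and 7 female, and from 17 WT mice, of which 10 were male and 7 female, all of the strain C57BL/6J. TIMP2 is a secreted inhibitor of metalloproteinases, and the KO line, from the Jackson Laboratory, is not the neuron-specific line that the study also made. The methods give ranges of age for the study's mice in general but do not say which applies to those sequenced. Dissected hippocampus is a mixture of cells, so fewer cells of a type and less RNA per cell cannot be told apart.

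In such a synapse, the membrane-associated guanylate kinases (MAGUKs), of which Dlg4 encodes PSD-95, bind receptors and are tied through the SAPAP proteins (Dlgap genes) to Shank and Homer scaffolds and to actin. Calcium entering through NMDA receptors acts on calmodulin, which activates the kinase CaMKII (Camk2 genes) and the phosphatase calcineurin (Ppp3ca, Ppp3cb and Ppp3r1), and these enzymes pull synaptic strength in opposite directions. Neurogranin (Nrgn) holds calmodulin in the spine, and the exchange factors switch on the small GTPases that reshape spine actin.

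The targeted gene was examined first. Timp2 was at 130, 161 and 171 CPM (read counts scaled to library size) in the lowest, median and highest KO mouse, and at 256, 333 and 380 CPM in WT mice, so the groups did not overlap. The KO mean was 50.1% of the WT mean, and at least 2980 reads were still counted on the gene in each KO mouse. Counts per gene do not show which exons these reads came from. The study left heterozygous mice out of its sequencing, and in its blots of hippocampal interstitial fluid the TIMP2 protein band was missing in KO mice. Timp2 had a log2 fold change of -0.999 (SE 0.05, adjusted p = 7.62e-16, quasi-likelihood test of edgeR, adjusted over all genes by Benjamini and Hochberg's method). Between 18345517 and 41081083 reads per mouse were counted on genes, and the member with the fewest reads in any mouse, Grip1, still had 556. One library stood apart: mouse 18, a KO male, had a score of 13.7 on the first principal component of the members after genotype means were removed, while the others lay between -5.36 and 5.04. Main results are given with and without it.

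The members covered a 576-fold range of levels. Compared per kilobase of merged exons (CPM per kb), Nrgn was highest, at 1064 CPM per kb in KO and 1068 in WT mice. Camk2a, the alpha subunit of CaMKII, followed at 611 and 626 CPM per kb, and the calcineurin regulatory subunit Ppp3r1 at 440 and 442. Of the exon bases of Ppp3r1, 14.3% are shared with Wdr92 on the same strand, so its level is uncertain. Ppp1r9b, which encodes the spine protein spinophilin that targets protein phosphatase 1, stood at 299.5 and 304 CPM per kb, and the CaMKII inhibitor Camk2n1 at 256 and 263. In the grouping by role used here, these 5 were listed as plasticity kinases, phosphatases or their regulators. Of the genes listed as scaffolds, Dlgap3 was highest, at 82.6 CPM per kb in KO and 83.8 in WT mice, and PSD-95 (Dlg4) had 59.4 and 60.3. Camk2d, Grip1 and Sorbs2 were lowest, with 1.85, 3.51 and 3.72 CPM per kb over all 30 mice. Merged exons include those of rare isoforms, which lowers this measure for genes with many of them.

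**Figure D1:**
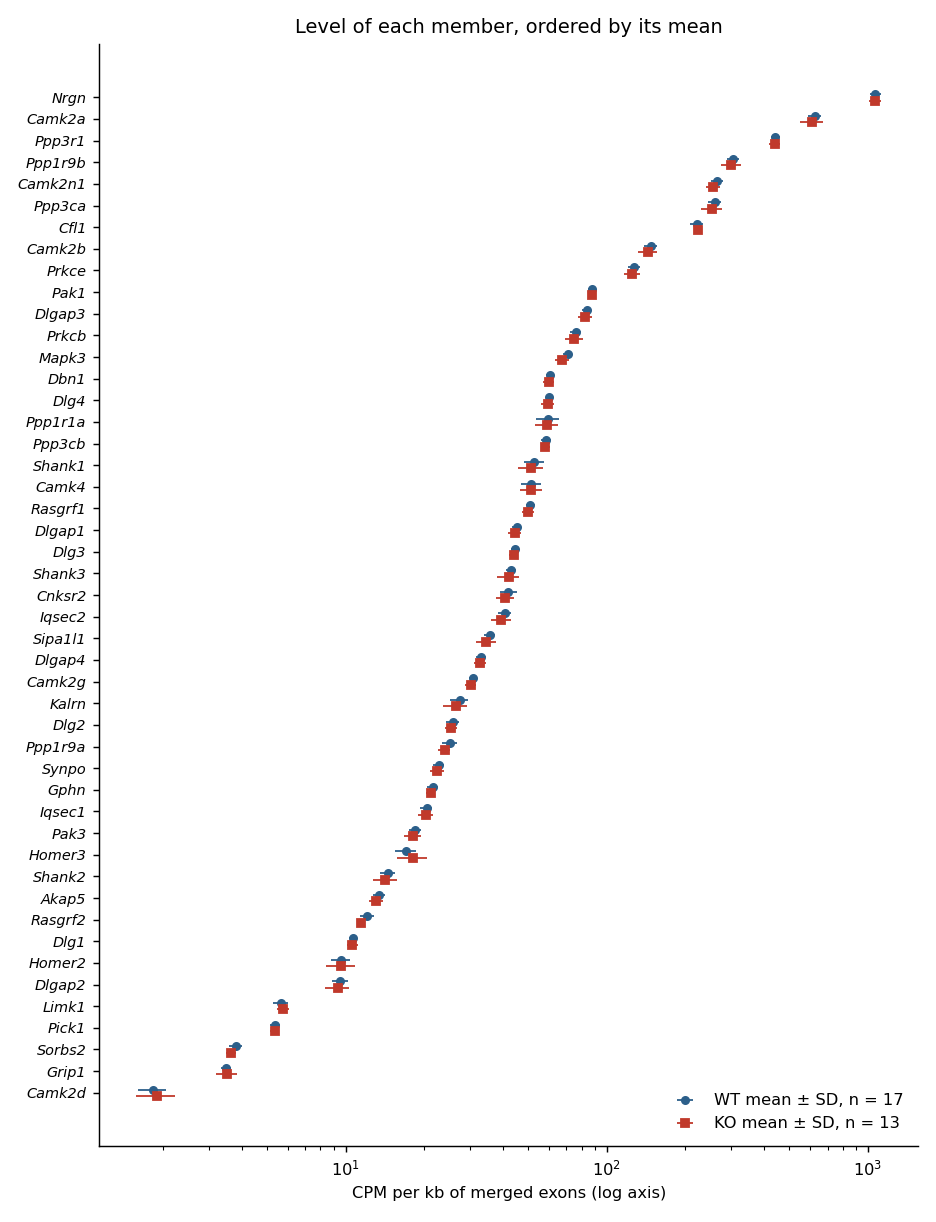
Level of each of the 47 members in CPM per kb of merged exons (log axis), as mean ± SD of 17 WT mice (circles) and 13 KO mice (squares). Nrgn is at the top near 1066 and Camk2d at the bottom near 1.85, and for each member the WT and KO points lie close together.

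The genotypes were then compared for each member. Of the 47 members, 4 had an unadjusted p under 0.05, the threshold for differentially expressed genes in the study, and all 4 were lower in KO mice: Rasgrf2, Mapk3, Ppp1r9a and Sorbs2. These 4 are 8.51% of the members, and among all genes tested 5.03% passed this threshold in either direction and 2.56% passed it with lower levels in KO. None of the members had an adjusted p under 0.05 (0.0546% of all genes tested did), and the smallest adjusted p was 0.872 by edgeR's quasi-likelihood test. DESeq2 also gave 0 members at an adjusted p under 0.05 and the same number, 4, at an unadjusted one. With all 30 mice, the 95% intervals of 45 members lay within a change of 10% in either direction, the exceptions being Homer3 and Camk2d. In 0 of the 47 members were the ranges of KO and WT mice separate. Shares over all genes tested are not given here for the counts by interval and by range. They are thus not shown to be particular to the members.

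Rasgrf2 encodes a calcium-regulated exchange factor that activates Ras and Rac. Its lowest, median and highest levels were 101, 106 and 111 CPM in KO mice and 102, 111 and 125 CPM in WT mice. All 13 KO mice were below the WT median, although the ranges overlapped. Rasgrf2 had a log2 fold change of -0.08 (SE 0.03, unadjusted p = 0.0055, adjusted p = 0.872, edgeR's quasi-likelihood test). The gene (ENSMUSG00000021708) is on chromosome 13 (GRCm38), minus strand, between 91880400 and 92131656.

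Mapk3 encodes ERK1, the mitogen-activated kinase that relays Ras signals toward the nucleus. In KO mice it was at 123, 152 and 161 CPM (lowest, median and highest), and in WT mice at 144, 161 and 175 CPM. A total of 12 of 13 KO mice were below the WT median, and the lowest of all was mouse 18. For Mapk3 the log2 fold change was -0.07 (SE 0.03, unadjusted p = 0.0124, adjusted p = 0.912, edgeR), and it was -0.05 without mouse 18 (unadjusted p = 0.0228, edgeR). Mapk3 (ENSMUSG00000063065) lies on chromosome 7, from 126759601 to 126765819 on the plus strand, and shares no exon bases with another gene.

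Ppp1r9a encodes neurabin, an actin-binding partner of protein phosphatase 1 and the paralog of spinophilin. Its level ran from 319 through a median of 344 to 384 CPM in KO mice and from 336 through 360 to 412 CPM in WT mice, with 11 of 13 KO mice below the WT median. For Ppp1r9a the log2 fold change was -0.07 (SE 0.03, unadjusted p = 0.028, adjusted p = 0.952, edgeR). Sorbs2 encodes an adaptor that links actin to membrane proteins. It had 93.8, 99.1 and 111 CPM in KO mice and 89.9, 105 and 114 CPM in WT mice, and the lowest value of all was a WT mouse. The log2 fold change of Sorbs2 was -0.06 (SE 0.03, unadjusted p = 0.0358, adjusted p = 0.968, edgeR), with 10 of 13 KO mice below the WT median. Ppp1r9a (ENSMUSG00000032827) is on chromosome 6 from 4902917 to 5165661, and Sorbs2 (ENSMUSG00000031626) on chromosome 8 from 45507788 to 45827906, both on the plus strand. An antisense gene, Sorbs2os, covers 3.8% of the exon bases of Sorbs2, and the strand setting of the counting is not given in the sources used here.

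**Figure D2:**
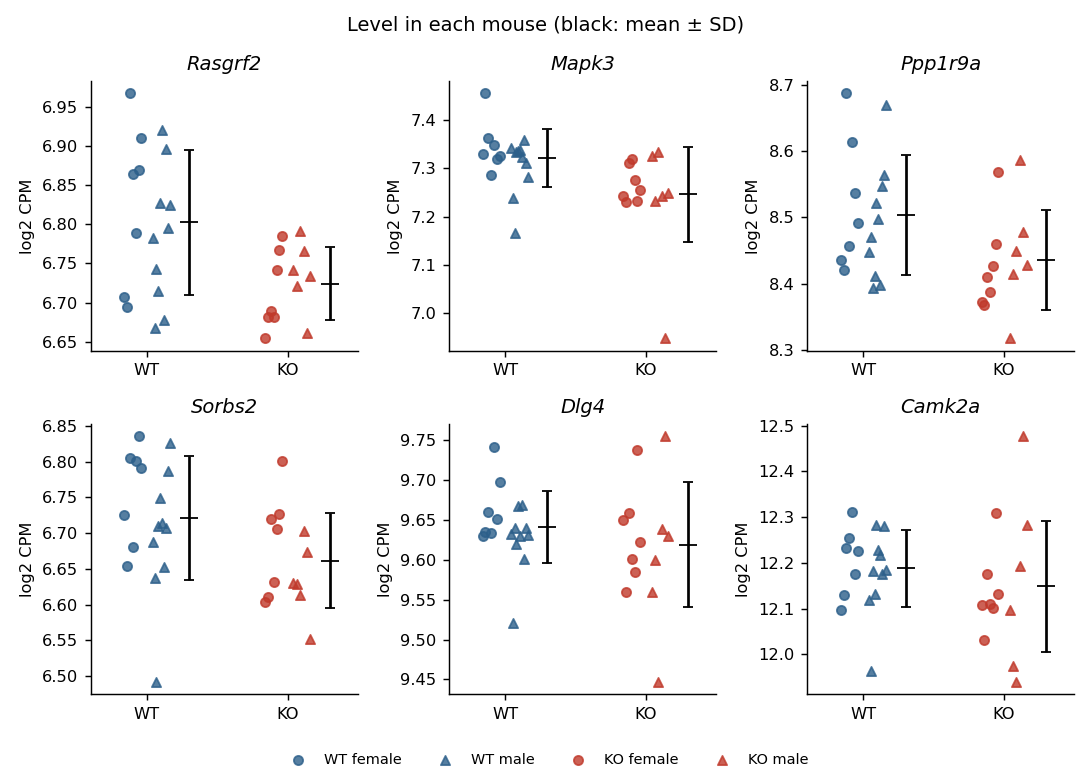
Log2 CPM of the 4 members with an unadjusted p under 0.05 and of Dlg4 and Camk2a in each of 17 WT (blue) and 13 KO (red) mice, with females as circles, males as triangles and the mean ± SD in black. For Rasgrf2 all 13 KO mice lie below the WT median, and in all 6 panels the genotypes overlap.

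Most members leaned the same way without passing the test. Of the 47 members, 40 had a log2 fold change below 0, with a median of -0.02, against 49.8% of all genes tested and a median of 0.00. The members vary together from mouse to mouse, so they do not count as separate observations of a direction. Each of the 4 MAGUK genes had a log2 fold change of -0.02 (0 of 4 passed). The 9 SAPAP, Shank and Homer genes ran from -0.04 to 0.10 (0 of 9 passed). Of the 7 other scaffolds and anchors 1 passed (Sorbs2), as did 1 of 10 kinases and their regulators (Mapk3), 1 of 6 phosphatases and their regulators (Ppp1r9a) and 1 of 5 exchange factors (Rasgrf2). Of the 6 spine actin genes 0 passed, and 3 of these 6 were below 0.

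With all 30 mice, the core genes showed small differences with narrow intervals. PSD-95 (Dlg4) had 698, 788 and 864 CPM in KO mice and 735, 795 and 856 CPM in WT mice, a log2 fold change of -0.02 with a 95% interval from -0.07 to 0.03. Camk2a had 3931, 4422 and 5698 CPM in KO mice against 3992, 4656 and 5082 CPM in WT mice, and a log2 fold change of -0.03 (95% interval -0.11 to 0.04). Its highest and its lowest value were both in KO mice. Shank3, a master scaffold of the deeper layer of the density, had a log2 fold change of -0.03 (95% interval -0.10 to 0.04), and the beta subunit Camk2b one of -0.04 (-0.11 to 0.03). For calcineurin's catalytic subunit Ppp3ca it was -0.04 (-0.11 to 0.04), and for Nrgn -0.005 (-0.06 to 0.05). Gephyrin (Gphn), which anchors glycine and GABA receptors at inhibitory synapses rather than excitatory ones, had a log2 fold change of -0.02 (-0.07 to 0.02). Among the other members with high levels, the 95% interval of the log2 fold change was -0.05 to 0.04 for Ppp3r1, -0.09 to 0.04 for Ppp1r9b and -0.10 to 0.02 for Camk2n1. None of these passed the test with all 30 mice and genotype alone in the model, and the intervals hold for that fit. Without mouse 18 the log2 fold changes were -0.065 for Camk2a, -0.060 for Shank3, -0.064 for Ppp3ca, -0.052 for Ppp1r9b and -0.047 for Camk2n1. They were -0.033 for Dlg4, -0.015 for Nrgn, -0.024 for Gphn and -0.021 for Ppp3r1. Camk2b was then at -0.067 and passed (unadjusted p = 0.0189, adjusted p = 0.818, edgeR). The sizes of change left possible thus depend on this 1 library.

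Homer3, a Homer scaffold, had the largest absolute log2 fold change of the members, 0.10 (SE 0.06, unadjusted p = 0.0889, edgeR). It was at 46.0, 62.3 and 74.8 CPM in KO mice and 42.9, 58.7 and 67.3 CPM in WT mice and the ranges overlapped. Of the exon bases of Homer3, 25.4% are shared with Ddx49 on the opposite strand, so its counts are uncertain. Homer2, the other Homer gene in the set, had a log2 fold change of 0.005 (SE 0.05, unadjusted p = 0.923, edgeR), which was -0.04 without mouse 18.

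**Figure D3:**
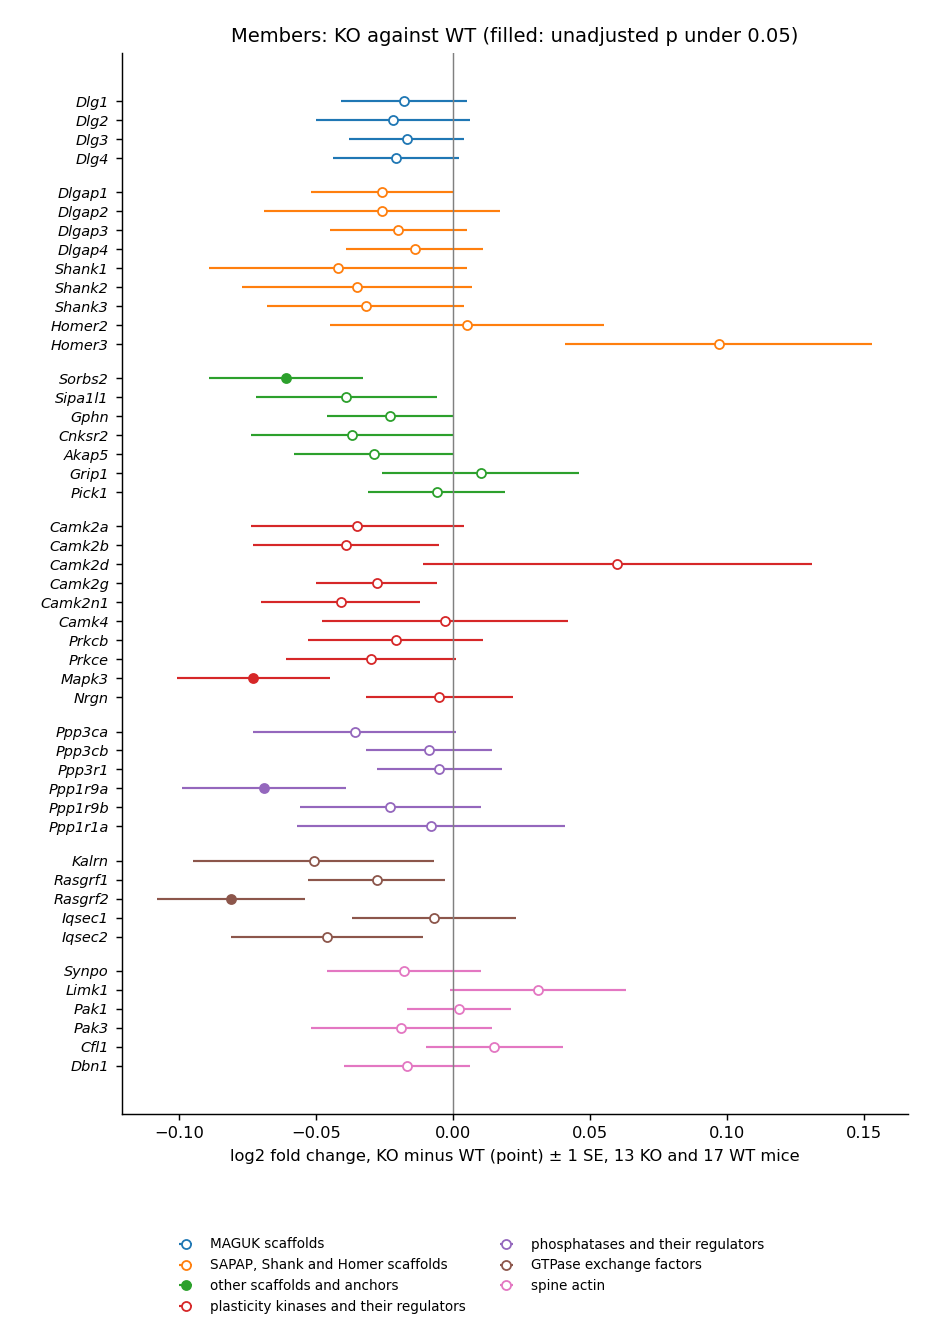
Log2 fold change (KO minus WT) ± 1 SE of the 47 members from edgeR, coloured by role. The filled points are the 4 members with an unadjusted p under 0.05, all left of 0, and 40 of 47 points lie below 0 within a span from -0.08 to 0.10.

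The make-up of the paralog families was compared next, since a family could change its composition at a steady total. As shares of the family's summed CPM per kb, Dlg4 made up 42.6% ± 1.21 of the Dlg transcripts in KO (SD, n = 13) and 42.7% ± 0.638 in WT (SD, n = 17), followed by Dlg3, Dlg2 and Dlg1 on this scale. Camk2a made up 77.6% ± 1.00 of the CaMKII transcripts in KO mice and 77.7% ± 1.03 in WT mice, and Camk2b 18.3% in both. In the Shank family Shank1 took 47.7% ± 0.992 in KO and 47.8% ± 1.31 in WT mice, and Shank3 took 39.2% and 39.1%. Dlgap3 held 48.9% of the SAPAP transcripts in both genotypes. Ppp3ca accounted for 81.2% ± 1.17 of the calcineurin catalytic transcripts in KO and 81.5% ± 0.762 in WT mice. These differences between genotypes were smaller than the SD between mice in each leading member. Without division by length the leading SAPAP gene was Dlgap1 (52.9% in KO and 53.0% in WT mice), and Dlg2 stood above Dlg3, so the order within these 2 families depends on the scale.

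**Figure D4:**
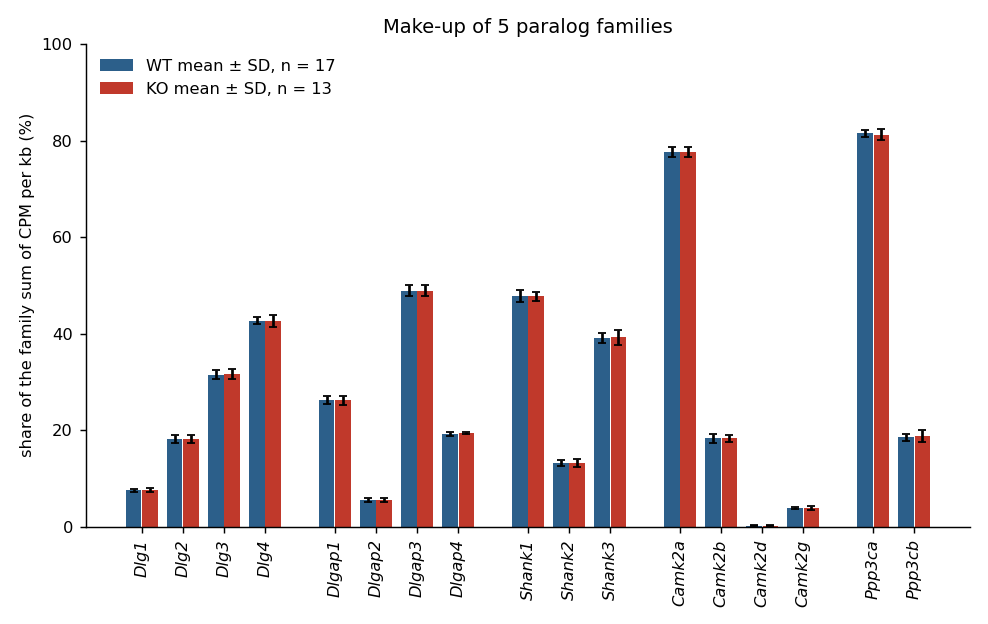
Share of each paralog in its family's sum of CPM per kb (percent, bars from 0), as mean ± SD of 17 WT mice (blue) and 13 KO mice (red). Camk2a at 77.7% and Ppp3ca at 81.5% in WT mice dominate their families, and WT and KO bars are nearly level throughout.

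Both sexes were also examined separately. In females alone 7 members had an unadjusted p under 0.05 (5% of all genes tested did), namely Kalrn, Rasgrf2, Mapk3, Camk2d, Ppp1r1a, Ppp1r9a and Cnksr2, and 6 of these 7 were lower in KO. In males alone 1 member did, Homer3, which was higher in KO (3.24% of all genes tested passed in males). The difference between the sexes was tested itself by the interaction of sex and genotype. It gave 2 members with an unadjusted p under 0.05, against 2.57% of all genes tested, and 0 at an adjusted one. Without mouse 18 the interaction gave 0 members with an unadjusted p under 0.05, against 2.55% of all genes tested. Markers of dentate gyrus granule cells also moved with genotype in females. In females 9 of 10 of them were lower in KO at an unadjusted p under 0.05 (median log2 fold change -0.22), and in males 3 of 10 were (median -0.08). Their summed level ran from 741 to 940.1 CPM in KO and from 888 to 1154 CPM in WT females, and from 755 to 893 CPM in KO and from 806 to 977 CPM in WT males. Their part in the calls of the members was not tested.

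The 2 members with mouse 18 included were Ppp1r1a and Camk2d. Ppp1r1a, which encodes inhibitor 1 of protein phosphatase 1, was at 68.9, 76.5 and 81.1 CPM in KO females and 73.5, 81.9 and 95.2 CPM in WT females. In males it was at 67.8, 78.8 and 99.3 CPM in KO and 64.3, 74.7 and 84.2 CPM in WT mice, so the order of the medians was opposite in the sexes. The log2 fold change was -0.13 in females and 0.10 in males, a difference of 0.23 (unadjusted p = 0.0186, adjusted p = 1.00, edgeR). Mouse 18 was the highest KO male, and without it the difference was 0.16 (unadjusted p = 0.0676, edgeR). Camk2d, the delta subunit of CaMKII, had a log2 fold change of 0.21 in females and -0.08 in males, a difference of -0.29 (unadjusted p = 0.043, adjusted p = 1.00, edgeR). Without mouse 18, which had the lowest Camk2d, it was -0.22 (unadjusted p = 0.105, edgeR). Without that mouse neither gene passed the threshold, while both differences kept their sign. The fold changes of the 4 members named first were below 0 in each sex, from -0.12 to -0.07 in females and from -0.08 to -0.05 in males.

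More members differed between mice with low and high numbers in the sample title than between genotypes. What that number stands for is not given in the sources used here. For its co-expression network the study adjusted expression for batch effects of isolation or harvest date. The sources used here do not give these dates by mouse, so whether the number follows them was not tested. The 15 mice numbered 1 to 16 (8 KO and 7 WT) were set against the 15 numbered 18 to 32 (5 KO and 10 WT), with genotype in the model. This comparison was added after the levels of the members had been seen to move with the number, so its p-values describe a pattern found in the same mice. In it 28 of 47 members had an unadjusted p under 0.05 (19.9% of all genes tested did), 25 of them higher in the higher-numbered mice, as did 39 of the 109 other postsynaptic genes described further on. At an adjusted p under 0.05 there were 12 members, all higher, or 25.5% of the members against 3.92% of all genes tested (edgeR's quasi-likelihood test). Without mouse 18 there were 8, all higher, or 17% of the members against 2.27% of all genes tested in that fit.

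Of the 12, Shank1, Sipa1l1, Shank2, Homer2, Camk2a, Dlg2, Dlgap4 and Shank3 kept an adjusted p under 0.05 without mouse 18. Shank1 was at 457, 511 and 600 CPM in the lower-numbered mice (lowest, median and highest) and at 519, 586 and 653 CPM in the higher-numbered mice. The log2 difference was 0.20 (SE 0.03, adjusted p = 0.00166, edgeR), and 0.18 without mouse 18 (adjusted p = 0.00542). Homer2 differed by 0.19 (SE 0.04, adjusted p = 0.00724, edgeR), Shank2 by 0.17 (SE 0.03, adjusted p = 0.00396) and Shank3 by 0.12 (SE 0.03, adjusted p = 0.0192), and without mouse 18 these differences were 0.15, 0.16 and 0.09. Homer3, the other Homer gene, had a log2 difference of -0.02 (adjusted p = 0.906, edgeR). Camk2a was at 3931, 4422 and 4816 CPM in the lower-numbered and 4397, 4799 and 5698 CPM in the higher-numbered mice, a log2 difference of 0.14 (SE 0.03, adjusted p = 0.00843, edgeR), or 0.12 without mouse 18. The remaining 4 of the 12 had an adjusted p over 0.05 without mouse 18, which was 0.0682 for Cnksr2, 0.0748 for Kalrn, 0.0778 for Synpo and 0.107 for Dlgap1 (edgeR). The 3 members that were lower in the higher-numbered mice at an unadjusted p under 0.05 were Pick1, Cfl1 and Pak1. Cfl1 shares 16.5% of its exon bases with Snx32 on the opposite strand. Of the 6 phosphatase genes 0 reached an adjusted p under 0.05.

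Other markers were compared by title number too. At an unadjusted p under 0.05, 11 of 14 immediate early genes and 4 of 7 astrocyte genes were higher in the higher-numbered mice. So were 2 of 6 microglia genes, and of 7 neuron genes Map2 was higher and Tubb3 lower. Among all genes tested, 19.9% passed in either direction, so the microglia and neuron counts are not shown to be particular to those lists. The summed level of the immediate early genes ran from 359 to 770.3 CPM in the lower-numbered and from 355 to 959 CPM in the higher-numbered mice, and that of the astrocyte genes from 4306 to 5337 and from 4736 to 5754 CPM. Their part in the differences of the members was not tested.

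Transcript length moved with this pattern. The median merged exon length was 8064 bases in the members and 4185 bases in all genes tested with a length, and the log2 difference between higher- and lower-numbered mice rose with length across all genes tested (Spearman rho = 0.319) and across the members (rho = 0.472). The log2 fold change between genotypes fell with length, with rho = -0.0982 across all genes tested and -0.325 across the members. These correlations are across genes, which share libraries and are not independent, and the part that length plays was not tested.

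**Figure D5:**
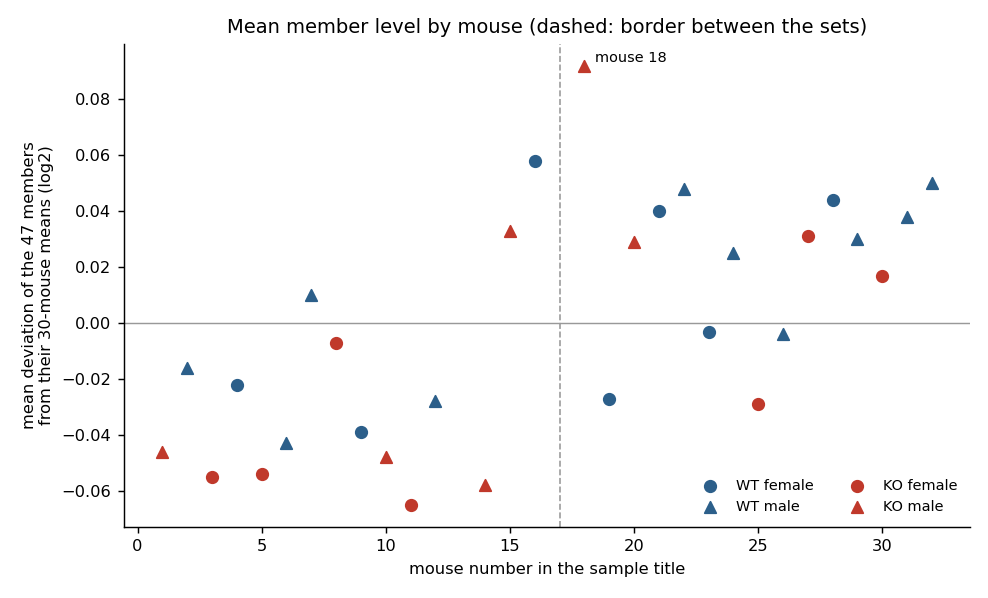
Mean deviation of the 47 members from their 30-mouse means (log2) in each mouse, against the number in its title, for WT (blue) and KO (red) mice, with females as circles and males as triangles. Most lower-numbered mice lie below 0 and most higher-numbered mice above it, in both genotypes, and mouse 18 is highest at 0.092.

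Since KO mice were 8 of the 15 lower-numbered and 5 of the 15 higher-numbered mice, the genotype comparison was repeated within each of these sets. In the lower-numbered mice 41 of 47 members had a log2 fold change below 0, with a median of -0.03, and 1 member (Camk2b) had an unadjusted p under 0.05 (3.45% of all genes tested did). In the higher-numbered mice 16 of 47 were below 0, with a median of 0.01, and 2 members (Mapk3 and Rasgrf2) had an unadjusted p under 0.05 (4.63% of all genes tested did). Without mouse 18, which is in that set, 32 of 47 were below 0. The leaning of the members toward lower levels in KO thus held in the lower-numbered mice and did not hold in the higher-numbered mice with mouse 18 among them. With the title number as a covariate over all 30 mice, 36 of 47 were below 0 and 2 members had an unadjusted p under 0.05, Mapk3 (log2 fold change -0.08, p = 0.0119, edgeR) and Rasgrf2 (-0.07, p = 0.0137). Leaving out mouse 18 from all mice instead raised the count of members with an unadjusted p under 0.05 from 4 to 8, all lower in KO (2.98% of all genes tested passed with lower levels in KO in that fit), with Camk2b, Iqsec2, Kalrn and Sipa1l1 added to the first 4. The number of members called therefore depended on 1 library and on the title number, and Rasgrf2 and Mapk3 were called in each of these fits except the lower-numbered mice alone.

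The members also varied together within genotypes. After genotype means were removed, the first principal component of the 47 standardized levels held 37.8% of their variance over 30 mice, and 32.2% without mouse 18. Sipa1l1, a spine-associated Rap-inactivating scaffold, had the highest weight (0.221), followed by Cnksr2 (0.208), Camk2a (0.207), Iqsec2 (0.203) and Dlgap1 (0.203). There were 10 members with weights below 0, the lowest being Camk2d (-0.169), Pak1 (-0.146) and Mapk3 (-0.131). Many scaffolds and CaMKII alpha thus rose and fell together from mouse to mouse, while Camk2d and the actin regulator Pak1 went the other way. Only genotype means were removed, so differences that go with the title number remain in this component. It is not shown to be a pattern apart from the title number. The weight of Mapk3 was -0.03 without mouse 18, and those of Camk2d and Pak1 were then -0.142 and -0.136.

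The upstream sequences of 2 members are shown: Rasgrf2 had the smallest p between genotypes, and Cnksr2, a scaffold that binds MAGUKs, had one of the highest weights in the shared variation. They are the 250 bases before the RefSeq transcription start in GRCm38.p6, chr13:92131829-92132078 and chrX:158043281-158043530, both on the minus strand and written 5′ to 3′. Capitals mark matches on either strand to TGACG, the core of the cyclic AMP response element, and to GGGCGG, the GC box. Of the members, 35 had an entry in the RefSeq table, and Mapk3 had none.
Rasgrf2: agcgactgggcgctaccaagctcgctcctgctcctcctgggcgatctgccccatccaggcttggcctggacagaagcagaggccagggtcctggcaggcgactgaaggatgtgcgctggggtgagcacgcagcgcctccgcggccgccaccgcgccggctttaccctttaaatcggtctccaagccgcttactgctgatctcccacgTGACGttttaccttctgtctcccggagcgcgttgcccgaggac
Cnksr2: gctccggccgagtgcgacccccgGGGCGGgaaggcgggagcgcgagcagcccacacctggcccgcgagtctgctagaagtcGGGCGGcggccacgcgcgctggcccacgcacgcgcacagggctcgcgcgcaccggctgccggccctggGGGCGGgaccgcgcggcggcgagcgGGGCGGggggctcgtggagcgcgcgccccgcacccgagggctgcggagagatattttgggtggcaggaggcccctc
The Rasgrf2 sequence held 1 match to TGACG, which was found in 17.8% of all 32851 windows of this length and in 8 of the 59 windows of the members (13.6%), and 0 to GGGCGG. The Cnksr2 sequence held 4 matches to GGGCGG, which was found in 32.7% of all windows and in 31 of the 59 windows of the members (52.5%), whose median GC content was 58.4% against 52.4% in all windows. The letters TATAAA were in neither sequence. A match describes these letters and does not show that a factor binds there.

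The wider postsynaptic machinery was represented by 111 further scaffold, kinase, phosphatase, GTPase and actin genes, of which 109 were tested (Cnksr1 and Ppp3r2 had too few counts). Of the 109, 6 had an unadjusted p under 0.05, or 5.5%, all lower in KO, where 5.03% of all genes tested passed in either direction and 2.56% with lower levels in KO, and 0 had an adjusted p under 0.05 (smallest 0.85, edgeR). The Rac exchange factor Tiam1 had the smallest p, with a log2 fold change of -0.12 (SE 0.04, unadjusted p = 0.00449, adjusted p = 0.85, edgeR) and levels of 138 ± 9.54 CPM in KO (SD, n = 13) and 149.6 ± 12.6 CPM in WT (SD, n = 17). The spectrin-binding adducins Add1 and Add2 had log2 fold changes of -0.03 and -0.07, and Sipa1l2 one of -0.08. By class, 3 of 23 scaffold genes, 0 of 43 kinase and phosphatase genes and 3 of 43 GTPase and actin genes passed. Of the 109, 70 (64.2%) had a log2 fold change below 0, with a median of -0.01, against 49.8% of all genes tested.

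Markers of cell types and of activity were compared for the same mice. The lists of CA1 and CA3 pyramidal cells and interneurons had 0 genes with an unadjusted p under 0.05, and that of neurons had 1 of 7 (Tubb3, higher in KO). Of all genes tested, 5.03% passed that threshold in either direction and 2.56% with lower levels in KO. A call of 1 gene in a short list is not shown to be particular to that list. No listed marker was at 0 in every mouse. Of 10 dentate gyrus granule cell markers, 5 were lower in KO at that threshold, and the summed level of all 10 ran from 741 to 940 CPM in KO mice and from 806 to 1154 CPM in WT mice. Of 14 immediate early genes, which follow neuronal activity, 10 were higher in KO, with sums from 391 to 959 CPM in KO and from 355 to 858 CPM in WT mice. Of 6 choroid plexus markers tested, 5 were higher in KO. Their sum ran from 134 to 1151 CPM in KO mice, the highest in mouse 11, and from 129 to 182 CPM in WT mice. Among the other lists, 1 of 7 astrocyte genes (Gfap, higher in KO) and 1 of 5 endothelial genes (Slco1a4, lower in KO) passed, and 0 did in those of oligodendrocytes, microglia, red blood cells, striatum, neocortex and thalamus. Without mouse 11 the members with an unadjusted p under 0.05 were Rasgrf2, Mapk3 and Ppp1r9a, and the p of Sorbs2 was 0.0501 (edgeR). The part of the granule cell and immediate early markers in the differences of the members was not tested.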

How the data were processed

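Poly(A)-selected hippocampal libraries were sequenced by the authors (paired-end reads, RNA integrity above the study's threshold in all samples). The submitters' processing notes name Trimmomatic 0.36, STAR 2.5.2b, featureCounts and Subread 1.5.2 with GRCm38 (mm10). The authors deposited raw counts of reads per gene and mouse, without normalization. Strand setting and annotation release are not given in the sources used here. Symbols, positions and exon lengths came from GENCODE M21.

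In R 4.3.3, edgeR 4.0.16 then gave TMM factors, the filterByExpr filter and quasi-likelihood tests over 16486 genes, 30 mice and genotype alone, with Benjamini-Hochberg adjustment. CPM used TMM-scaled library sizes, and log2 CPM a prior count of 2. The 95% intervals came from the fitted SE. The script was tested on simulated data. Nothing in the labels says that mice were pooled, and each sample is a mouse. The members and gene lists were chosen with earlier results of these data known. Named genes were the members with an unadjusted p under 0.05 in the genotype or interaction test, the 5 highest per kb, the 3 with the largest absolute log2 fold change, 8 core genes, Timp2 and up to 10 further postsynaptic genes with an unadjusted p under 0.05. Some of the latter are not reported here. Genes named for the title number, principal component, sequences, one sex, one set of title numbers or a mouse left out were chosen after their values were seen.

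Alternatives were RLE factors, DESeq2 1.42.0, limma 3.58.1 voom with sample weights, other filters, sex, 8 surrogate variables (sva 3.50.0) or log2 total counts as covariates, each sex alone, and mouse 11 left out. Fits by title number and without mouse 18 were added after seeing the data.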

Additional observations from a re-analysis of the deposited data

How the results depend on the processing

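The log2 fold change of Timp2 stayed between -1.04 and -0.95 over the 16 alternatives, each with an adjusted p under 0.05. No member had an adjusted p under 0.05 in any of them. The number of members with an unadjusted p under 0.05, 4 of 47, was 9 with sex and surrogate variables, 7 in females, 1 in males, 2 with the title number, 1 in the lower-numbered mice, 2 in the higher-numbered mice with or without mouse 18, and 8 without mouse 18 alone. The number below 0 was 16 in the higher-numbered mice. With sex and surrogate variables it was 31, and the log2 fold changes of Ppp1r9a and Sorbs2 were -0.01 and -0.02, with unadjusted p of 0.623 and 0.367 (edgeR). Of the 109 further genes, 6 passed, and this number was 10 with sex, 1 in males, 3 with the title number, 3 in the lower-numbered mice, 10 without mouse 18 and 3 in the higher-numbered mice without mouse 18. Shares of all genes tested are not given here for DESeq2 or for fits with sex, surrogate variables or title number as covariates. None is given for the higher-numbered mice without mouse 18 either, so counts in these fits have no background beside them. The interaction gave 1 member with DESeq2 (Ppp1r1a) and 0 without mouse 18, in place of 2. The cause of these shifts was not tested. The fits within a sex or within a set of title numbers also used fewer mice.

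Directions also turned among members that did not pass. In the higher-numbered mice the log2 fold changes were 0.027 for Nrgn, 0.031 for Camk2a, 0.038 for Ppp3r1, 0.042 for Ppp1r9b, 0.019 for Ppp1r1a, 0.010 for Dlg4, 0.017 for Shank3, 0.019 for Camk2b and 0.036 for Ppp3ca, and without mouse 18 they were 0.001 for Nrgn and 0.002 for Ppp3r1. In males they were 0.005 for Nrgn, 0.010 for Ppp3r1, 0.006 for Ppp1r9b, -0.081 for Camk2d, 0.098 for Ppp1r1a, 0.019 for Shank3 and 0.008 for Camk2b. With sex and surrogate variables they were 0.008 for Nrgn, 0.013 for Ppp3r1, 0.002 for Ppp1r1a and -0.050 for Homer2. Homer2 was at -0.029 with voom, -0.010 in the lower-numbered mice and -0.037 without mouse 18. No paired analysis was made. The study states that its controls were littermates, but the labels used here name no litters. The replicate numbers were given in accession order and pair no mice.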
